A study of Mus musculus with 2 samples.

Results

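The genes described here are a fixed list of 40 cell cycle genes, 25 of mitosis and 15 of DNA replication, taken by symbol. The probe panel listed 36 of them among its 19465 genes, 22 of mitosis and 14 of replication. Ccnb1, Cdc20, Kif2c and Rrm2 were not analysed here. They were measured in 2 sections of mouse skin by spatial transcriptomics, in which pairs of probes that bind a transcript are captured on a grid of barcoded spots and counted as unique molecular identifiers (UMIs). One section came from an S1pr2fl/fl mouse, whose S1pr2 gene carries loxP sites but is not cut, and the other from a mouse that also carried K14-Cre, whose recombinase is driven by the keratin 14 promoter and so removes the gene from keratinocytes (S1pr2fl/fl K14-Cre). Both mice carried the floxed gene, were 8 weeks old, had been depilated 1 day before and then received 62.5 mg of 5% imiquimod (IMQ) cream daily for 7 days, a treatment that gives psoriasis-like skin. No untreated section was analysed, and with 1 section per genotype no difference below has a replicate check. Intervals are 95% intervals, cover counting error only and say nothing of how mice vary.

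A cell that divides first licenses and copies its DNA in S phase and then separates the copies in mitosis. The MCM proteins form the helicase that opens DNA, Cdc6 and Cdt1 load it, and Rrm1 and Tyms supply nucleotides. Cyclins with Cdk1 start mitosis, Aurora and Polo kinases and kinesins build and move the spindle, and Bub1, Bub1b and Ttk check that chromosomes are attached. In the epidermis such cells lie mainly in the basal layer, marked by keratin 5 (Krt5). Keratin 6a (Krt6a) is induced in the suprabasal layers of psoriatic and wounded epidermis.

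The promoters of the members are shown first because both groups of genes are known for shared elements. A set of 3 motifs was searched on both strands from 250 bases before to 50 bases after the start (RefSeq, GRCm38.p6): the CHR element TTTGAA, the CCAAT box, and an E2F site in one of 4 spellings, TTCCCGC, its variant TTCGCGC, the form TTGGCGC or the form TTGCCGC. The reverse of CCAAT can share the letters TTGG with TTGGCGC. A window was found for 18 of the 22 mitosis members and 12 of the 14 replication members. Ccna2, Aurkb, Kif20a, Tpx2, Mcm4 and Gins2 were not among them. CHR was present in 14 of 18 mitosis members (77.8%), in 1 of 12 replication members (8.33%) and in 20.2% of 27025 genes. E2F showed the opposite split, with 2 of 18 mitosis members (11.1%), 9 of 12 replication members (75.0%) and 10.9% of all genes. CCAAT was present in 16 mitosis members (88.9%), 8 replication members (66.7%) and 41.1% of all genes. A match is a description of letters and not of a bound site. The 100 bases before the start are printed for the 3 members of each group with the most UMIs among those with a single window, with the motif matches in capitals:
Mki67 (chr7:135716380-135716479, minus strand): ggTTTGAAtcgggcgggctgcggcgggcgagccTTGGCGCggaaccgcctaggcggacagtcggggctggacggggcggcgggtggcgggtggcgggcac
Cdk1 (chr10:69352913-69353012, minus strand): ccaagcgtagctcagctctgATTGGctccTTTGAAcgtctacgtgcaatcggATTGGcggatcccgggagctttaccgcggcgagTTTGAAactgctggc
Nusap1 (chr2:119618198-119618297, plus strand): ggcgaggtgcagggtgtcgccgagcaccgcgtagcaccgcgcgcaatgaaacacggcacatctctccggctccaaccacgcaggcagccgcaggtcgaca
Rrm1 (chr7:102441595-102441694, plus strand): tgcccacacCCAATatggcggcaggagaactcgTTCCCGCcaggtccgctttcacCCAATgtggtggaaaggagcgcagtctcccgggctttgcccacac
Mcm3 (chr1:20820313-20820412, minus strand): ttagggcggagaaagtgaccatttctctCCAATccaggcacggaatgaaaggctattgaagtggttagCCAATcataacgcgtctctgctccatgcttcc
Mcm2 (chr6:88898781-88898880, minus strand): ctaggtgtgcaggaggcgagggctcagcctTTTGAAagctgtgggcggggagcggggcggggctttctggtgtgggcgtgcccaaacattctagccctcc
Cdk1 carried 2 CHR matches and 2 CCAAT boxes in this stretch, Rrm1 an E2F match between 2 CCAAT boxes, and Nusap1 none of the 3 motifs. Mcm2 was the replication member with a CHR match.

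The S1pr2fl/fl section held 1282 spots and 5315351 UMIs, with a median of 3542.5 per spot, and the K14-Cre section 981 spots and 2845826 UMIs, with a median of 2319. The targeted gene, S1pr2, gave 44 UMIs (20.9 CPM, counts scaled to a total of 1000000 UMIs) in the epidermal spots of the S1pr2fl/fl section and 13 (16.2 CPM) in those of the K14-Cre section, a log2 ratio of -0.36 (-1.38 to 0.55), so these counts could not resolve a loss there. It was lower in the other spots of the K14-Cre section (-0.77, -1.33 to -0.24) and over all its tissue (-0.61, -1.09 to -0.15). Receptor genes of smell, taste and pheromones (1226 genes) were used as a measure of background. In the epidermal spots they reached 2096 CPM in the S1pr2fl/fl section and 11043 CPM in the K14-Cre section. Per receptor gene this was 1.71 and 9.01 CPM, so S1pr2 at 16.2 CPM was near this mean in the K14-Cre section. The members Plk1, Aurkb and Ttk, at 13.7 CPM each, were also near it there, and Cenpe, Mcm7 and Pcna were below it. Transcripts of keratinocytes were spread far beyond the epidermis in the S1pr2fl/fl section, where the 15 epidermis markers summed to 22292 CPM in the other spots against 3649 CPM in the K14-Cre section.

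Spots were clustered without the members, Krt5 and Krt6a, and a cluster was counted as epidermis-marker where its summed epidermis markers reached at least 2 times the median over the clusters of that section. This took 437 spots of the S1pr2fl/fl section (3 clusters) and 279 of the K14-Cre section (2 clusters). This was the fourth definition tried, and all 4 were tried with the members' levels by cluster in view. A spot covers several cells, and a lower level can mean fewer dividing cells or less RNA in each, which cannot be told apart.

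The members were lowest in clusters led by muscle genes. They were highest in clusters led by sebaceous genes and in epidermis-marker clusters, except the S1pr2fl/fl cluster led by Hrnr, Lce6a and Flg. In the S1pr2fl/fl section their summed level was 2164 CPM (2069 to 2263) in the 165 spots led by Ano1, Mab21l3 and Chdh. It was 1911 CPM in the 251 spots led by Scd3, Fa2h and Soat1, genes of sebaceous lipid synthesis, and 1534 CPM in the 137 spots led by Sprr2i and Gm5414. The 135 spots led by Hrnr, Lce6a and Flg, genes of the cornified layer, held 1061 CPM (986 to 1141), and the 206 spots led by the muscle genes Myh2 and Myoz2 held 799.6 CPM. In the K14-Cre section the level was 2232 CPM (2105 to 2366) in the 176 spots led by Pou3f1 and Defb6, 2036 CPM in the 114 spots led by Fa2h and Far2, and 1886 CPM in the 103 spots led by Sprr2i and Lce3a. It was 502 CPM in the 256 spots led by the muscle genes Cox6a2 and Myo18b. The 166 spots led by the developmental myosin Myh3 held 883 CPM. The receptor genes also varied by cluster. In the order named, they were at 2819, 3723, 2049, 1197 and 2035 CPM in the S1pr2fl/fl section. In the K14-Cre section they were at 12413, 11966, 8624, 2335 and 5209 CPM. The part of background in the members' order was not tested. No cluster of the K14-Cre section was led by Hrnr, Lce6a or Flg, but its cluster led by Sprr2i and Lce3a also had the cornified envelope genes Lce3b and Lce3c among its leading genes. In epidermis-marker spots the differentiated keratinocyte markers summed to 53607 CPM in the S1pr2fl/fl section and 14939 CPM in the K14-Cre section. The epidermis-marker spots of the sections are thus not of the same makeup.

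**Figure D1:**
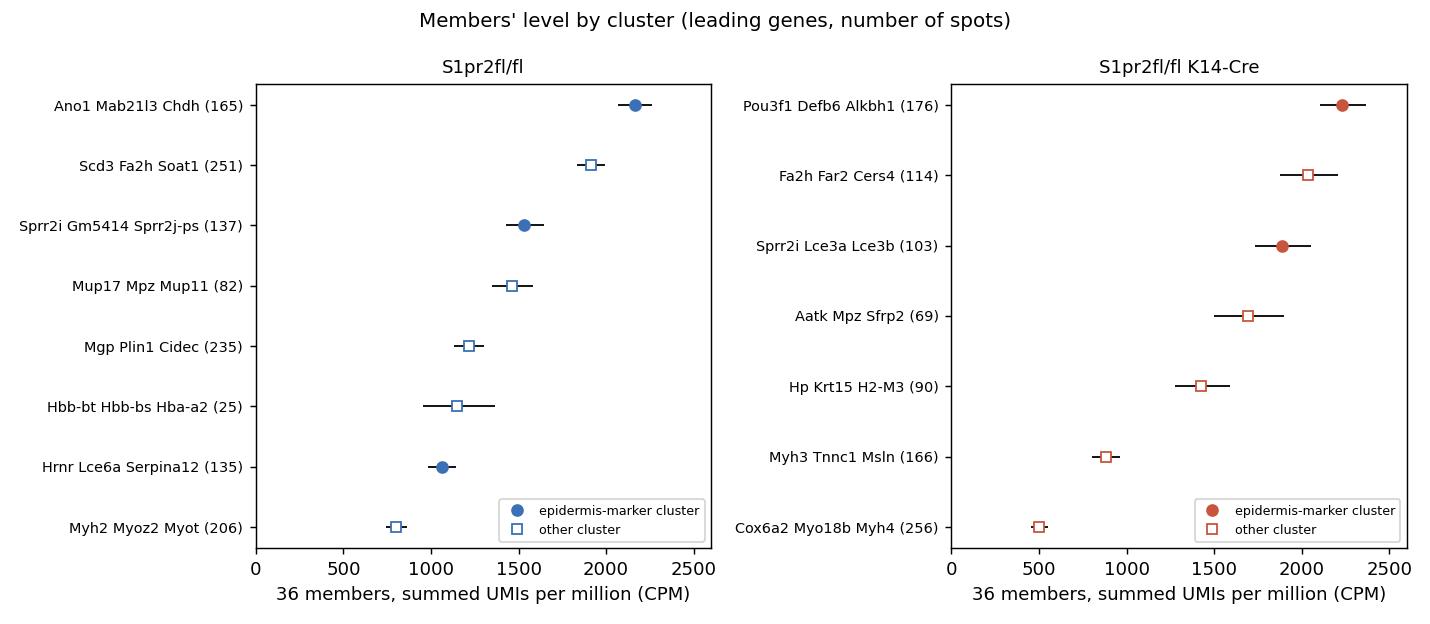
Summed level of the 36 members in CPM (x axis, with 95% Poisson intervals) in each cluster, named by its 3 leading genes with its number of spots, for each section. Filled circles are epidermis-marker clusters. The cornified cluster of the S1pr2fl/fl section, at 1061 CPM, sits among the lowest, and the highest clusters of the sections are at 2164 and 2232 CPM.

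Distance from the outer edge, which was set with the same clusters, gave a similar layering. Each spot was placed by its number of grid steps from the epidermis-marker spots on the border of the tissue. In the S1pr2fl/fl section the members rose from 1117 CPM at the edge to 1843 CPM after 1 step and 2050 CPM (1950 to 2153) after 2 steps, then fell to 1511 CPM after 4 steps and 828 CPM at 8 steps or more. In the K14-Cre section they were already at 1876 CPM at the edge, reached 2195 CPM (2045 to 2352) after 1 step and 2098 CPM after 2, and had fallen to 812 CPM after 4. The receptor genes were also layered. At 0, 1, 2, 4 and at least 8 steps they were at 1357, 2119, 3061, 3843 and 2020 CPM in the S1pr2fl/fl section. In the K14-Cre section they were at 9841, 12935, 11198, 5269 and 2082 CPM, a course like that of the members. The part of background in the layering was not tested. Mitosis genes were above replication genes at the edge, with 720 against 397 CPM in the S1pr2fl/fl section and 1269 against 607 CPM in the K14-Cre section. The sums were close at depth, at 433 against 395 CPM and at 200.4 against 262 CPM. The value of 905 CPM for mitosis genes at 7 steps in the K14-Cre section rests on 45 UMIs of 29 spots.

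**Figure D2:**
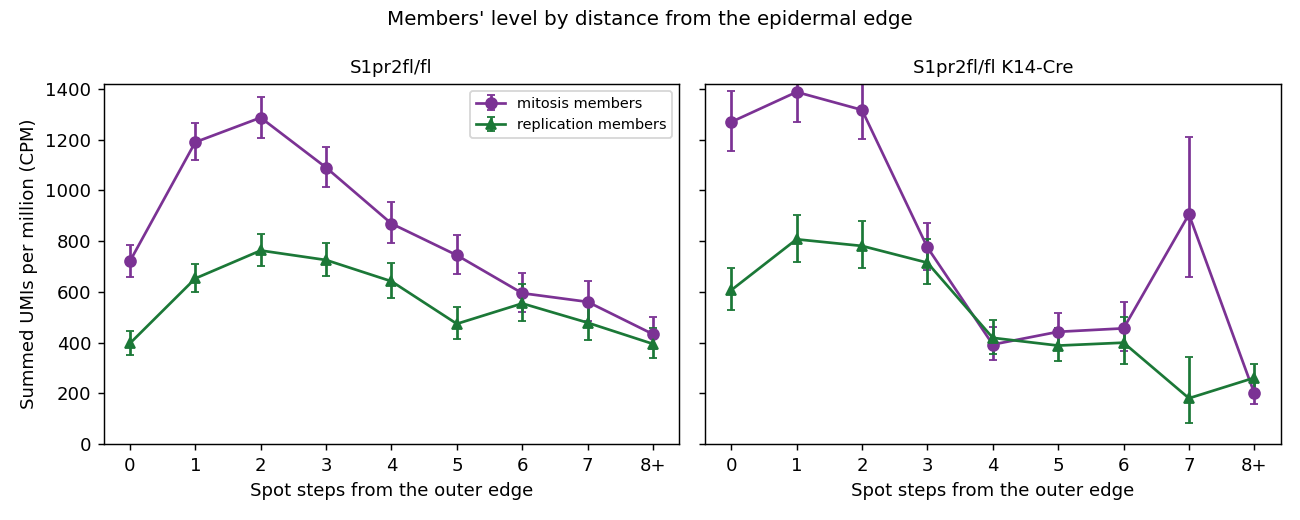
Summed CPM of mitosis members (circles) and replication members (triangles) against the number of spot steps from the outer epidermal edge, with 95% Poisson intervals, for each section. Mitosis members peak at 2 steps in the S1pr2fl/fl section and at 1 step in the K14-Cre section.

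Over the whole region, the members summed to 1646 CPM (1592 to 1702) in epidermis-marker spots and 1381 CPM (1341 to 1423) in the other spots of the S1pr2fl/fl section, a log2 ratio of 0.25 (0.19 to 0.32). In the K14-Cre section the values were 2107 CPM (2008 to 2210) and 1026 CPM (983 to 1071), a log2 ratio of 1.04 (0.94 to 1.13). The ratio of the S1pr2fl/fl section turned to -0.56 and -0.55 under the first and second region definitions, which kept 196 and 135 spots there, the latter being the cornified cluster alone. Along 4 segments of tissue the log2 ratio ran from 0.01 to 0.49 in the S1pr2fl/fl section and from 0.86 to 1.22 in the K14-Cre section.

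Mitosis genes carried most of this difference. Their log2 ratio was 0.41 (0.33 to 0.50) in the S1pr2fl/fl section and 1.29 (1.17 to 1.41) in the K14-Cre section, whereas replication genes gave 0.00 (-0.10 to 0.11) and 0.66 (0.51 to 0.81). All 36 members passed the minimum of 20 UMIs in the S1pr2fl/fl section. There 3 were at least 2-fold higher in epidermis-marker spots, against 4.97% of 14299 genes, and 0 at least 2-fold lower, against 25.6%. In the K14-Cre section 33 passed, of which 15 were at least 2-fold higher against 22.7% of 15548 genes and 0 at least 2-fold lower against 13.6%. The median log2 ratio was 0.21 for the members and -0.40 for all genes in the S1pr2fl/fl section, and 0.92 and 0.22 in the K14-Cre section. The sum over all 1226 receptor genes gave -0.57 (-0.63 to -0.52) in the S1pr2fl/fl section, below the members' sum, and 0.91 (0.87 to 0.95) in the K14-Cre section, close to the members' 1.04. With the mean of a receptor gene taken off each member, the members' ratios were 0.30 and 1.06.

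Among the regulators of mitotic entry, Cdk1, the kinase that drives mitosis, stood at 128 CPM in epidermis-marker and 134 CPM in other spots of the S1pr2fl/fl section, and at 287 and 86.6 CPM in the K14-Cre section. Its log2 ratios were -0.07 (-0.30 to 0.15) and 1.73 (1.44 to 2.02), so a difference between regions was resolved in the K14-Cre section and not in the other. Its partner cyclin A2 (Ccna2) had 109 against 82.3 CPM and 232 against 75.3 CPM. Cyclin B2 (Ccnb2) was higher in epidermis-marker spots of both sections, with log2 ratios of 0.86 (0.39 to 1.32) and 1.77 (0.90 to 2.66). The Polo kinase Plk1 showed ratios of -0.01 (-0.63 to 0.59) and 0.00 (-1.15 to 1.05), no difference that these counts could resolve.

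Mki67, the proliferation marker that coats mitotic chromosomes, had the most UMIs of the members in the S1pr2fl/fl section, 1014, and was present in 33.5% of its spots. It stood at 255 CPM in epidermis-marker and 148 CPM in other spots there (log2 ratio 0.78, 0.60 to 0.96), and at 196 and 93.4 CPM in the K14-Cre section (1.07, 0.76 to 1.38). Top2a, which untangles DNA, had ratios of -0.06 (-0.41 to 0.29) and 0.17 (-0.63 to 0.92), the latter from 22 UMIs in epidermis-marker spots, and neither resolved a difference.

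Of the genes of chromosome segregation, Ube2c, the ubiquitin enzyme of the anaphase-promoting complex, was at 25.2 against 9.97 CPM in the S1pr2fl/fl section and at 53.7 against 20.1 CPM in the K14-Cre section. Birc5, a subunit of the chromosomal passenger complex, was higher in epidermis-marker spots by 0.73 (0.35 to 1.12) and 1.37 (0.89 to 1.85). Aurkb, the kinase of that complex, had the largest ratio of the members in the S1pr2fl/fl section, 1.96 (0.90 to 3.11) from 39 UMIs. In the K14-Cre section its ratio was 0.81 (-0.44 to 2.01) from 27 UMIs, which resolved no difference. The centromeric histone Cenpa differed between the sections in the size of its ratio, 0.22 (-0.18 to 0.62) and 1.95 (1.37 to 2.54). The spindle factor Tpx2 had 0.71 (0.06 to 1.37) and 2.19 (1.19 to 3.25), and the kinesin Kif20a 0.96 (0.30 to 1.63) and 1.59 (0.58 to 2.61). Ttk, Kif23 and Nusap1 had ratios of -0.85, -0.16 and 0.01 in the S1pr2fl/fl section. In the K14-Cre section they had 0.42, 0.65 and 0.32. These counts could resolve none of these differences.

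Replication genes were spread more evenly. The helicase subunit Mcm2 was at 77.9 against 67.0 CPM in the S1pr2fl/fl section (log2 ratio 0.22, -0.09 to 0.52) and at 120 against 61.6 CPM in the K14-Cre section (0.96, 0.56 to 1.35). Its partner Mcm6 was lower in epidermis-marker spots of the S1pr2fl/fl section, at 68.4 against 85.1 CPM (-0.32, -0.62 to -0.02), and higher in those of the K14-Cre section, at 68.7 against 39.6 CPM (0.79, 0.27 to 1.31). The loader Cdc6 was at 12.8 against 24.9 CPM in the S1pr2fl/fl section (-0.96, -1.65 to -0.31) and at 30.0 against 19.1 CPM in the K14-Cre section (0.65, -0.15 to 1.42). Rrm1, the large subunit of ribonucleotide reductase, gave 0.15 (-0.10 to 0.41) and 0.92 (0.54 to 1.30). Pcna, the sliding clamp, had 21 UMIs in each section, too few to place.

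**Figure D3:**
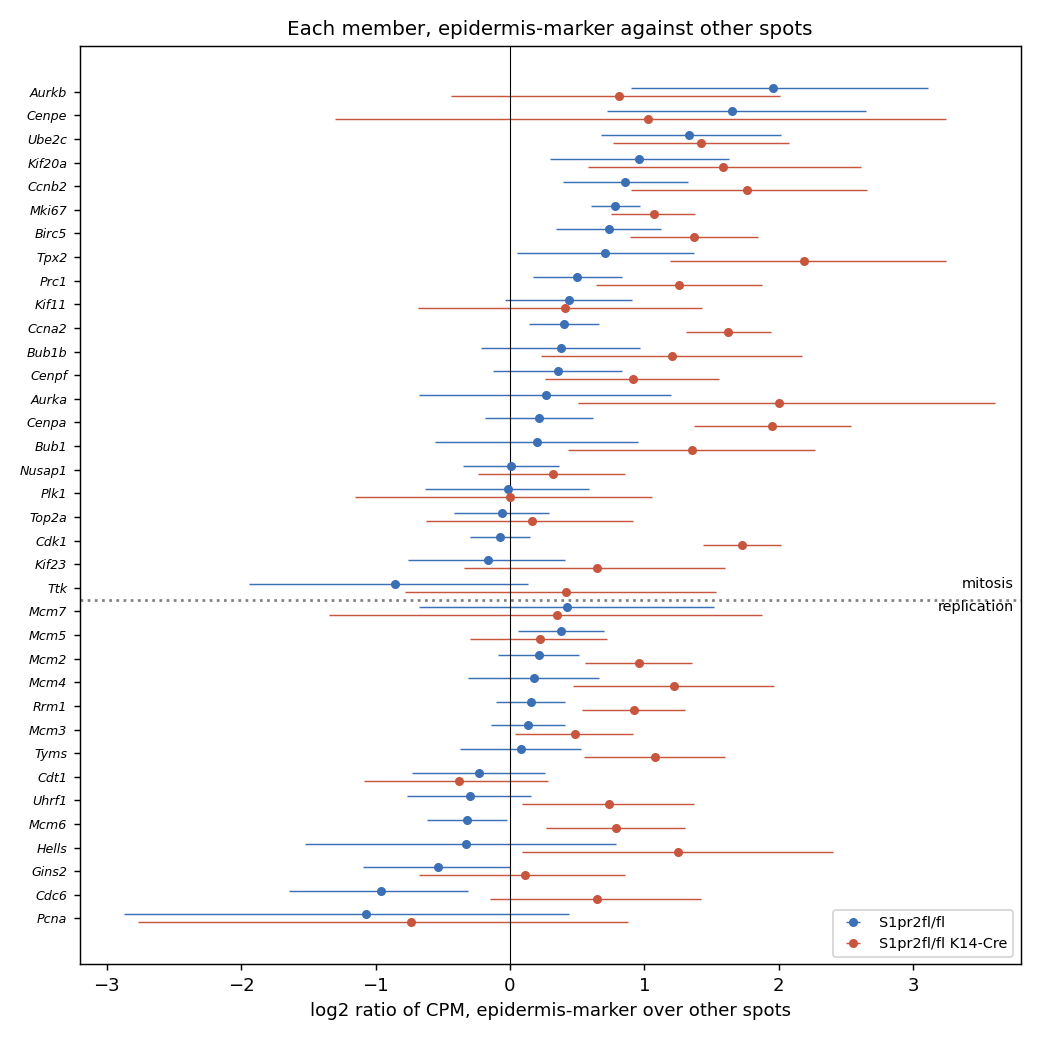
log2 ratio of CPM in epidermis-marker over other spots for each of the 36 members, with 95% conditional binomial intervals, mitosis members above the dotted line and replication members below it. K14-Cre points lie to the right of 0 for 34 of 36 members and S1pr2fl/fl points for 24. Of all genes with at least 20 UMIs, 58.3% and 29.8% lay to the right of 0, and 83.8% and 22.9% of the receptor genes that passed.

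The balance of replication to mitosis UMIs was lower in the epidermis. It was 0.552 (0.515 to 0.592) in epidermis-marker spots and 0.735 (0.692 to 0.780) in other spots of the S1pr2fl/fl section, and 0.539 (0.487 to 0.596) and 0.836 (0.766 to 0.911) in the K14-Cre section. The odds of a UMI being from replication rather than mitosis were 0.752 (0.685 to 0.825) and 0.645 (0.564 to 0.737) times those of the other spots. Between the sections, the odds in epidermis-marker spots differed by a factor of 0.975 (0.862 to 1.10), which includes 1. Without Mki67 the ratios in these spots were 0.728 in the S1pr2fl/fl section and 0.629 in the K14-Cre section, further apart than with it. The ratio depends on which probes are on the panel and carries no meaning as a ratio of phases.

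Within the epidermis the members were lower where differentiated keratinocyte markers prevailed. Epidermis-marker spots were ranked by basal over differentiated keratinocyte UMIs and split into 3 equal groups. From the most differentiated to the most basal group the members went from 1281 CPM (1200 to 1367) through 1813 to 1869 CPM (1763 to 1981) in the S1pr2fl/fl section, and from 1624 CPM (1439 to 1825) through 2176 to 2298 CPM (2137 to 2467) in the K14-Cre section. Of the 36 members, 30 were higher in the most basal than in the most differentiated group of the S1pr2fl/fl section and 25 in the K14-Cre section. With at least 20 UMIs over both groups, 24 of 26 members were higher against 59.1% of 7990 genes in the S1pr2fl/fl section, and 14 of 15 against 55.9% of 5090 genes in the K14-Cre section. Over single epidermis-marker spots Spearman's rho of the members' CPM with the differentiated markers was -0.39 and -0.20, and with the basal markers -0.20 and 0.09, so the members did not rise with the basal markers in the S1pr2fl/fl section. Birc5 went from 41.3 to 70.4 CPM and from 23.1 to 126.5 CPM, and Tpx2 from 8.27 to 31.1 CPM and from 5.78 to 54.2 CPM. The starting values of the K14-Cre section rest on 4 UMIs of Birc5 and 1 UMI of Tpx2. Members also went the other way in that section, such as Cenpf from 52.0 to 27.1 CPM and Kif20a from 40.4 to 27.1 CPM. The median depth of a spot also differed, with 2946 and 3513 UMIs in those groups of the S1pr2fl/fl section and 1437 and 3166 in the K14-Cre section. With each spot thinned to the same number of UMIs, the members' rho with the differentiated markers was -0.30 in the S1pr2fl/fl section (342 epidermis-marker spots). In the K14-Cre section (247 epidermis-marker spots) it was -0.09, too weak to read a link from. With the basal markers the thinned values were -0.13 and 0.07. The part of depth in the levels of the groups was not tested.

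Over all spots the link to keratin 5 was positive in both sections. Over spots with at least 500 UMIs, Spearman's rho of the members' CPM with Krt5 CPM was 0.39 in the S1pr2fl/fl section (1096 spots) and 0.43 in the K14-Cre section (947 spots). Within epidermis-marker spots it was 0.54 (383 spots) and 0.17 (273 spots). Neighbouring spots share tissue, and both values share the spot's total, so these are descriptions. With each spot thinned to 1000 UMIs the values over all spots were 0.23 and 0.37, and within epidermis-marker spots 0.37 and 0.08, the last too weak to read a link from. The members' rho with the receptor genes was 0.20 and 0.37 over all spots, and 0.14 and 0.35 after thinning. Within epidermis-marker spots it was 0.30 and -0.03. Over all K14-Cre spots the link to Krt5 was thus close to that with this background, whose part was not tested. Within epidermis-marker spots the members' rho with the dermis markers was 0.40 and 0.07, and 0.31 and -0.01 after thinning. In those spots of the S1pr2fl/fl section the link was thus not particular to Krt5. Epidermis-marker spots were also ranked on Krt5 and split into 4 equal groups. From the lowest to the highest group the members rose from 740 CPM (646 to 844) to 2314 CPM (2199 to 2433) in the S1pr2fl/fl section. In the K14-Cre section they were at 1671 CPM (1467 to 1895) in the lowest group and 2332 CPM (2154 to 2520) in the highest. The intervals of the highest groups thus overlapped, whereas those of the lowest did not. In the lowest and highest groups the receptor genes were at 1424 and 2044 CPM in the S1pr2fl/fl section. In the K14-Cre section they were at 14253 and 9268 CPM. The median depth rose from 2192.5 to 6491 UMIs and from 1537 to 3004.5 UMIs along these groups. The part of background and depth in these values was not tested.

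Keratin 6a followed another course. Its rho with the members was 0.09 in the S1pr2fl/fl section and 0.26 in the K14-Cre section over all spots, and -0.22 and -0.03 within epidermis-marker spots. In the 4 groups by Krt6a of the S1pr2fl/fl section the members stayed at 1813, 1848 and 1723 CPM and dropped to 1136 CPM (1040 to 1237) in the highest. Over the same groups the receptor genes fell from 3128 through 2307 and 1639 to 1136 CPM. The median depth was 5145 UMIs in the lowest group and 3297 in the highest. The part of background and depth in the drop was not tested. In the K14-Cre section the groups held 2282, 1957, 2287 and 1963 CPM with overlapping intervals, while the receptor genes fell from 14934 CPM in the lowest to 7175 CPM in the highest. Krt6a itself was at 5843 CPM in epidermis-marker spots of the S1pr2fl/fl section and 2636 CPM in those of the K14-Cre section, whereas Krt5 was at 4516 and 4178 CPM.

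**Figure D4:**
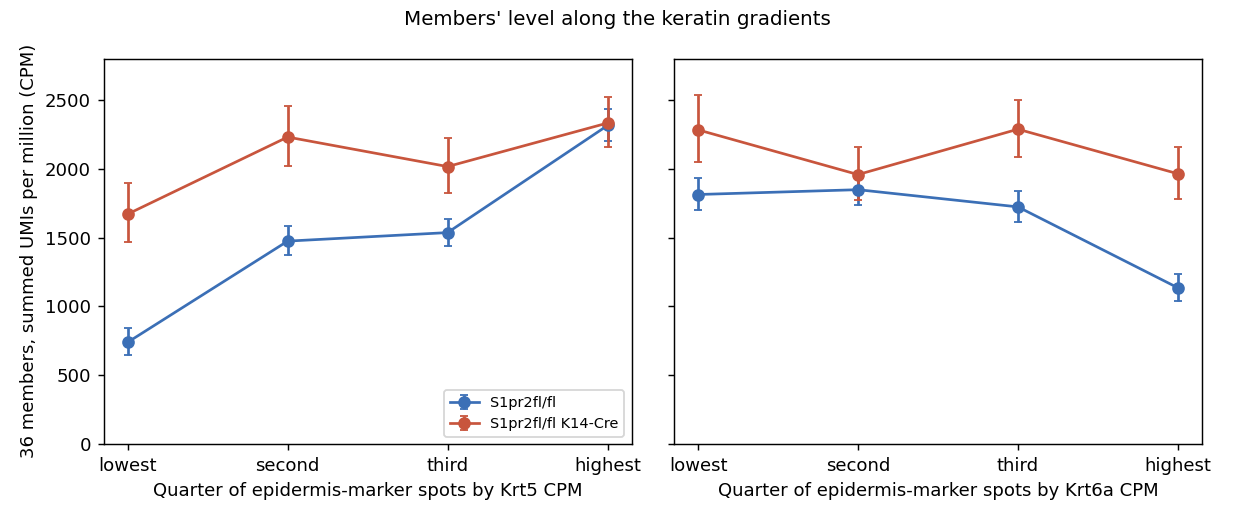
Summed level of the 36 members in CPM, with 95% Poisson intervals, in 4 equal groups of epidermis-marker spots ranked by Krt5 (left) or Krt6a (right). The S1pr2fl/fl section climbs from 740 to 2314 CPM along Krt5 and drops to 1136 CPM in the highest group by Krt6a.

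The difference between the sections in the epidermis had no settled direction. The members' sum in epidermis-marker spots was 1646 CPM in the S1pr2fl/fl section and 2107 CPM in the K14-Cre section, a log2 ratio of 0.36 (0.27 to 0.44), with 0.37 (0.26 to 0.47) for mitosis and 0.33 (0.19 to 0.48) for replication genes. All genes tested had a median of 0.43, and the sum over all 1226 receptor genes gave 2.40 (2.34 to 2.45). With the mean of a receptor gene taken off each member the ratio was 0.17. With TMM scaling, which sets the bulk of genes level, it was -0.40. Under the first 2 region definitions it was 0.92 and 0.99, and under the one tried after them 0.32. The range over segments was 1569 to 1754 CPM in the S1pr2fl/fl section and 1753 to 2244 CPM in the K14-Cre section. The differentiated keratinocyte markers stood at 53607 CPM in epidermis-marker spots of the S1pr2fl/fl section and 14939 CPM in those of the K14-Cre section, and their part in the result was not tested. In the other spots the members were lower in the K14-Cre section, by a log2 ratio of -0.43 (-0.50 to -0.35). These spots were not of the same makeup. Those of the S1pr2fl/fl section held the cluster led by Scd3 and Fa2h, with 31573 CPM of epidermis markers. The 8 muscle markers summed to 92837 CPM in the K14-Cre section and 33476 CPM in the S1pr2fl/fl section. The part of either in the result was not tested. Over all tissue the ratio was -0.16 (-0.22 to -0.10).

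Single members lay on both sides. Of the 35 that passed the minimum, 8 were at least 2-fold higher in the epidermis-marker spots of the K14-Cre section, against 31.2% of 12761 genes, and 2 at least 2-fold lower, against 8.24%. Both shares lie below the background. The counts were 0 and 6 with TMM scaling and 3 and 6 with the receptor mean taken off. Under the first and second region definitions they were 10 and 0 or 13 and 0. The share of all genes was not taken under these settings, so these counts cannot be set against a background. Cdk1 was at 128 CPM in the S1pr2fl/fl and 287 CPM in the K14-Cre section (log2 ratio 1.17, 0.91 to 1.43), Ccna2 at 109 and 232 CPM (1.09, 0.81 to 1.38) and Tyms, which makes thymidylate, at 34.7 and 72.4 CPM (1.06, 0.54 to 1.58). Mki67 went the other way, at 255 and 196 CPM (-0.38, -0.65 to -0.12), as did Top2a at 52.7 and 27.5 CPM (-0.94, -1.67 to -0.27) and the spindle motor Kif11 at 34.7 and 16.2 CPM (-1.09, -2.07 to -0.23). Members with the same role therefore differed in direction. Over all tissue 0 of 36 were at least 2-fold higher, against 28.4% of 18125 genes, and 3 at least 2-fold lower, against 4.47%.

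**Figure D5:**
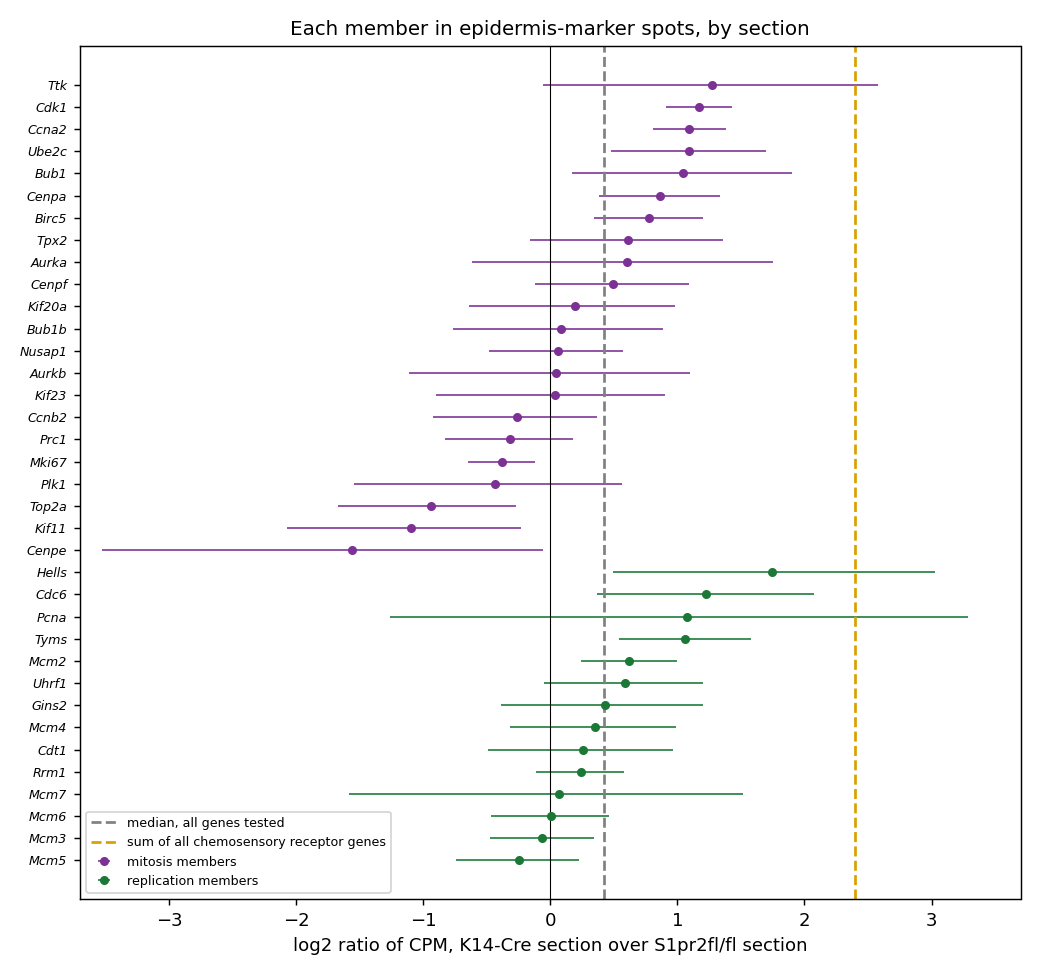
log2 ratio of CPM in epidermis-marker spots, K14-Cre section over S1pr2fl/fl section, for each member, with 95% conditional binomial intervals. Dashed lines are the median of all genes tested (0.43) and the ratio of the summed receptor genes (2.40). Mki67, Top2a and Kif11 lie left of 0, and Cdk1, Ccna2 and Tyms right of it.

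Other genes of the cycle were taken from lists. Of 13 further mitosis genes with at least 50 UMIs in each section, 9 had a ratio above 0 between epidermis-marker and other spots of the S1pr2fl/fl section (median 0.36) and 13 in the K14-Cre section (median 0.95), where 29.8% and 58.3% of all genes tested were above 0. Cdca3, which helps trigger mitotic entry, gave 0.76 (0.52 to 1.00) and 1.51 (1.17 to 1.85). Of 12 further replication genes 10 and 8 were above 0, with Fen1, the flap nuclease, at 0.70 (0.26 to 1.15) and 1.41 (0.80 to 2.02). Of 13 genes of G1 and S entry 5 were above 0 in each section, with medians of -0.13 and -0.05 beside -0.40 and 0.22 for all genes. Cyclin D2 (Ccnd2) was lower in epidermis-marker spots, at -1.20 (-1.58 to -0.84) and -0.96 (-1.45 to -0.50), whereas Cdk6 was higher, at 0.62 (0.30 to 0.93) and 1.33 (0.76 to 1.89). Among 5 inhibitors of cyclin-dependent kinases, Cdkn1a (p21) was higher in epidermis-marker spots, at 513 against 272 CPM and 759 against 279 CPM. Cdkn2c (p18) was lower, at 57.0 against 101 CPM and 61.2 against 130.1 CPM.

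The genes whose spot-to-spot pattern was most like the members' sum, by the lower rho of the sections among 2783 genes with at least 200 UMIs in each, were Krt5, Hist1h1d, Hist1h2bb, Hist1h1a, Hist2h2bb, Slc2a1, Actb, Sdc1, Hist1h3d and Tmsb4x. Krt5 led with 0.39 and 0.43, and the linker histone Hist1h1d followed with 0.31 and 0.32. The medians over all these genes were 0.10 and 0.05. High spots were not confined to the epidermis: of the 5% of spots with the highest members' CPM, 22 of 55 were epidermis-marker spots in the S1pr2fl/fl section, where 34.9% of all spots were, and 27 of 47 in the K14-Cre section, where 28.8% were. The median depth of these spots was below that of all spots, at 2392 against 4319 and 1746 against 2380 UMIs.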

How the data were processed

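The deposited files held raw UMI counts per gene and spot. Per the file headers and the labels the authors made them with Space Ranger 3.0.0 against mm10 from formalin-fixed sections of 10 µm. The counts were used as deposited, on the spots over tissue, and scaled to CPM, counts per 1000000 UMIs of a region or spot. Members, lists and comparisons were chosen with earlier results of these data known.

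Spots with at least 50 UMIs were clustered (2000 variable genes, 20 components, 15 neighbours, Leiden at resolution 1, igraph 0.11.9). Which clusters count as epidermis was settled after the data were seen. In all, 4 definitions were tried, each while the members' level per cluster was in view, and the section difference depends on the choice. The first scaled genes before clustering. The first and second named a cluster epidermis where at least 50% of its markers were 2-fold above all other spots, and the third where they were 2-fold above the median cluster. The fourth, used here, sums the markers and counts every cluster at 2 times the section's median or more. It left out the S1pr2fl/fl cluster led by Scd3 and Fa2h, with 31573 CPM of epidermis markers. It counted the K14-Cre cluster led by Pou3f1 and Defb6, with 31659 CPM, and left out the one led by Fa2h and Far2, with 11361 CPM. The cut is thus not the same level in the sections. The values of all 4 are given.

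Intervals are exact Poisson or conditional binomial (scipy 1.17.1). Only the conditional binomial interval was tested, on simulated Poisson counts. Such counts hold no variation along the tissue, so the test cannot show how the interval behaves where there is some. With 1 section per genotype no test was made, and a gene is called at 2-fold among genes with at least 20 UMIs. Folds of single genes across all genes used a pseudocount of 0.5. TMM factors came from edgeR 4.0.16. Named genes were all members, list genes with at least 50 UMIs in each section and the 10 genes most like the members' sum.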

Additional observations from a re-analysis of the deposited data

Results flagged for a closer look

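Mcm6, a subunit of the replicative helicase, was the member whose counting intervals lay on opposite sides of 0 in the sections: lower in epidermis-marker spots of the S1pr2fl/fl section (log2 ratio -0.32) and higher in those of the K14-Cre section (0.79), a difference of -1.11. The median of all genes tested also moved, from -0.40 in the S1pr2fl/fl section to 0.22 in the K14-Cre section, and the sum of the receptor genes from -0.57 to 0.91. In the S1pr2fl/fl section Mcm6 was thus above both. With 1 section per genotype the difference of Mcm6 was not tested.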

How the results depend on the processing

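How the epidermis was delimited, a choice made after the data were seen, and the scaling between sections changed directions. The first and second of the 4 definitions turned the difference between epidermis-marker and other spots of the S1pr2fl/fl section to -0.56 and -0.55 (log2), and the first gave 0.76 in the K14-Cre section. For the difference between the sections they gave 0.92 and 0.99 for all members, 0.90 and 0.95 for mitosis and 0.98 and 1.06 for replication genes, with 13 members at least 2-fold higher under the second and 0 at least 2-fold lower under either. The ratio of replication to mitosis UMIs was then 0.458 and 0.501 in the S1pr2fl/fl section and 0.484 under the first in the K14-Cre section. TMM scaling turned the difference between sections to -0.40, -0.39 and -0.42 for all, mitosis and replication members, with 0 members at least 2-fold higher and 6 at least 2-fold lower. Taking off the receptor mean gave 0.17, 0.20 and 0.12, with 3 higher and 6 lower. Thinning to 1000 UMIs gave 0.51, 0.50 and 0.53, with 3 higher and 0 lower, and a rho with Krt5 of 0.23 in the S1pr2fl/fl section. The mean of CPM over spots gave 0.49 for all and 0.56 for replication members, 4 members lower, and a difference between regions of 0.091 in the S1pr2fl/fl section. Without Mki67 that difference was 0.17, the difference between sections was 0.46 for all and 0.54 for mitosis members, and the replication to mitosis ratio was 0.728 and 0.629. Resolution 0.5 gave a difference between regions of 1.20 in the K14-Cre section, and ranking spots by markers left 1 member at least 2-fold lower. Within epidermis-marker spots the rho with Krt6a turned to -0.22 in the S1pr2fl/fl section and -0.025 in the K14-Cre section. The rho with Krt5 there was 0.54 and 0.17. After thinning to 1000 UMIs, the rho with Krt6a in these spots was -0.10 and 0.04. Causes were not tested. The share of all genes at least 2-fold apart was not taken under these settings, so these counts of members have no background beside them. Of 105 alternative values for 13 results, 59 were classed as the same as the main value, 39 as moved and 7 as reversed. For the rhos the margin was the spread over the 4 segments and not a counting interval. The counts of members had no interval. Members with few UMIs, such as Pcna with 21 in each section, have wide counting intervals. In epidermis-marker spots Pcna was at 2.37 CPM in the S1pr2fl/fl section and 4.99 CPM in the K14-Cre section. The mean receptor gene was at 1.71 and 9.01 CPM there. No paired analysis was possible because each genotype has 1 section.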
